A study of Mus musculus with 8 samples.

Results

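The Sertoli cell identity and hormone genes are 9 genes that are widely used to recognise Sertoli cells, the somatic cells of the seminiferous tubule: *Sox9*, *Wt1*, *Gata4*, *Dmrt1*, *Amh*, *Fshr*, *Inha*, *Inhbb* and *Clu*. They were taken by symbol, with no threshold on any measured value, from 24651 genes measured by RNA-seq. The libraries came from 8 pairs of testes collected at postnatal day 12 from mice of mixed strain background, 4 labelled wild type and 4 *Morc2b*-/-. The mutant allele lacks exon 2 of *Morc2b*, which holds the whole coding region of this meiotic gene. The sample labels give the controls as wild type, whereas the design text of the series calls them *Morc2b*+/-.

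Sertoli cells nurse the germ cells and form the blood-testis barrier. The transcription factors SOX9, WT1, GATA4 and DMRT1 set up and maintain their male fate. The cells respond to pituitary follicle-stimulating hormone (FSH) through its receptor FSHR and secrete inhibin B, a dimer of the products of *Inha* and *Inhbb*, which lowers FSH release. Immature Sertoli cells also secrete anti-Müllerian hormone (AMH), whose production declines as they mature and as germ cells enter meiosis. Clusterin, the product of *Clu*, is a secreted chaperone that Sertoli cells make in large amounts.

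Expression of the Sertoli genes differed little between genotypes. Of the 9 genes, 8 had enough counts to be tested, and 0 of them passed an adjusted p-value of 0.05 in edgeR, where 0% of the 13507 tested genes did. At an unadjusted p under 0.05, 1 of the 8 was reached, *Clu*, beside 1.84% of all tested genes. The genotypes overlapped in all 8 genes, and 1.29% of tested genes had samples that did not overlap between genotypes. The median log2 fold change of the 8 genes, *Morc2b*-/- over wild type, was 0.07, beside 0.00 over all tested genes, with 6 above 0 and 2 below. The adjusted p-value (edgeR) was 0.9998 for each of the 8. In whole testes, a different number of Sertoli cells and a different amount of RNA per Sertoli cell cannot be told apart.

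Values are counts per 1000000 library counts (CPM), scaled by TMM factors of 0.98 to 1.01, and libraries held 27144796 to 36941755 counts. Some libraries stood apart in transcripts of other cells. Wild type replicate 1 held 253.6 CPM over 9 epididymal genes, *Morc2b*-/- replicate 2 held 18.3 CPM, and the other 6 samples held 3.37 to 5.76 CPM. Wild type replicate 1 also held 1694 CPM over 5 peritubular myoid genes, against 784 to 999 CPM. Over 6 spermatid genes, wild type replicate 1 had 146 CPM and *Morc2b*-/- replicate 3 had 295 CPM, against 1.85 to 32.8 CPM elsewhere. *Morc2b* itself was measured at 11.7, 16.3, 0.857 and 40.0 CPM in wild type replicates 1 to 4 and at 0.323, 0.270, 3.29 and 0.0688 CPM in the mutants. The library labelled wild type replicate 3 was thus below the library labelled *Morc2b*-/- replicate 3. Without both of these libraries the log2 fold changes of the 8 Sertoli genes lay between -0.09 and 0.17, each with an adjusted p-value (edgeR) of 0.9999. Over all 8 samples the log2 fold change of *Morc2b* was -4.09, with an adjusted p-value (edgeR) of 0.9998. The fit thus did not call the deleted gene itself, and 0 genes passing does not mean that no gene differed.

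**Figure D1:**
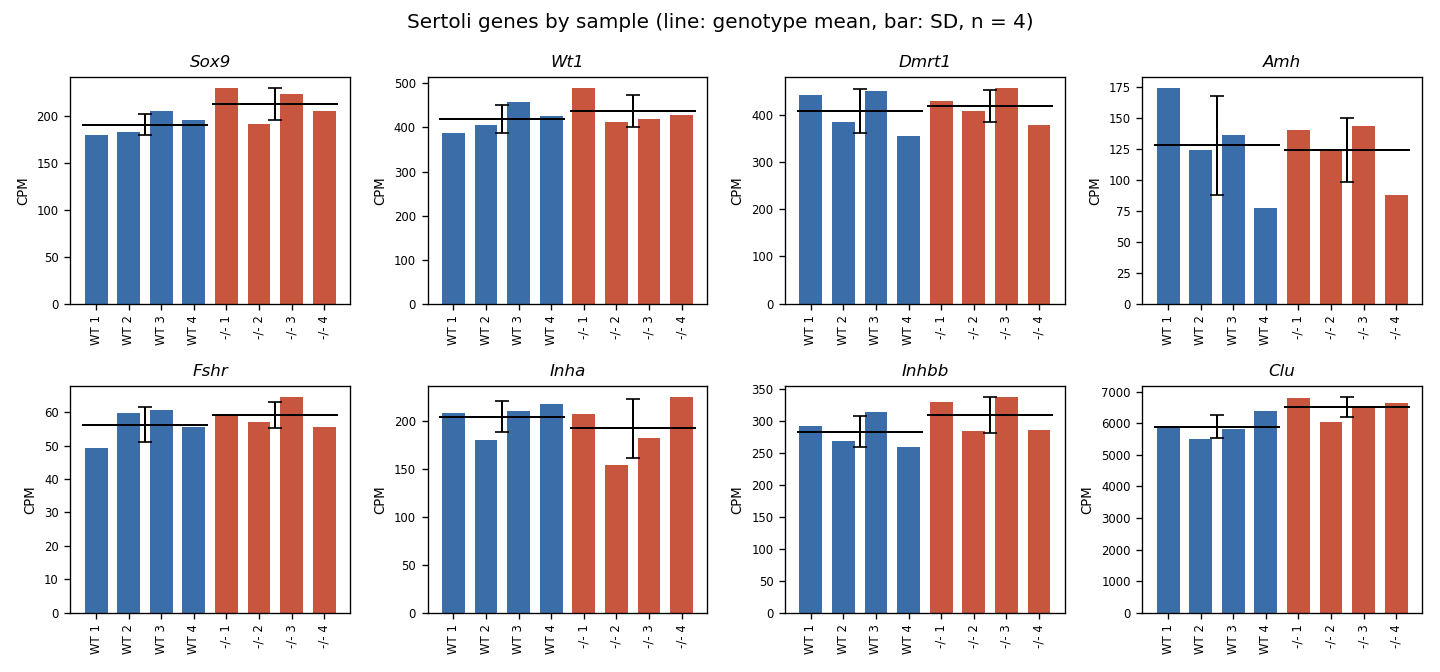
Normalized expression (CPM, vertical axes from 0) of the 8 measurable Sertoli genes in each testis sample, with blue bars for wild type (WT) and red bars for *Morc2b*-/- (-/-). Black lines give the genotype mean and error bars the SD (n = 4), and in every panel some mutant samples lie within the wild type range.

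Among the transcription factors, *Sox9*, which drives Sertoli cell determination, lies on chromosome 11 at 112643538 to 112649074 (NCBIM37, plus strand, 3 exons). *Sox9* stood at 180.0, 184, 205 and 196 CPM in wild type replicates 1 to 4 and at 230.2, 192, 224 and 206 CPM in *Morc2b*-/- replicates 1 to 4. The mutants held the 3 highest values, but replicate 2 lay within the wild type range. The log2 fold change of *Sox9* was 0.16 (SE 0.07, 95% interval -0.00 to 0.32), with an exact permutation p of 0.114 (two-sided, n = 4 and 4). The smallest p that 4 against 4 samples allow is 0.0286.

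*Wt1*, a zinc finger regulator needed to keep Sertoli cells from losing their identity, is on chromosome 2 at 104966686 to 105013773 (NCBIM37, plus strand). *Wt1* was measured at 387, 405, 459 and 426 CPM in wild type and at 489.7, 411, 419 and 428 CPM in the mutants. *Morc2b*-/- replicate 1 was highest and wild type replicate 1 lowest, and the other mutants fell among the controls. For *Wt1* the log2 fold change was 0.06 (SE 0.07, 95% interval -0.11 to 0.23, exact permutation p = 0.486).

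*Dmrt1*, on chromosome 19 at 25580108 to 25678819 (NCBIM37, plus strand), encodes a DM domain factor made in Sertoli cells and in spermatogonia. *Dmrt1* had 442, 385, 451 and 355 CPM in wild type replicates and 430.3, 408, 457 and 378 CPM in mutant replicates. Replicate 4 was the lowest of each genotype and replicate 3 the highest of each. The genotypes differed by a *Dmrt1* log2 fold change of 0.04 (SE 0.09, 95% interval -0.17 to 0.24, exact permutation p = 0.743).

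*Gata4*, a zinc finger factor of gonadal somatic cells on chromosome 14 at 63817759 to 63890529 (NCBIM37, minus strand), could not be measured. It is listed as 2 transcripts, and a read falling on both was left uncounted. In all, 1 count remained over all 8 samples. This count is not a level of *Gata4* expression. This also touches *Inha*, which also has 2 listed transcripts, whereas the other 7 genes have 1 each.

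*Amh*, on chromosome 10 at 80267993 to 80270393 (NCBIM37, plus strand, 5 exons), varied most. *Amh* stood at 174, 125, 136 and 77.2 CPM in wild type replicates 1 to 4. In *Morc2b*-/- replicates 1 to 4 it stood at 140.3, 125, 143 and 87.5 CPM. Replicate 4 was the lowest of each genotype, and wild type replicate 1 was the highest of all. The highest *Amh* value was 2.26 times the lowest, whereas for the other 7 genes this ratio lay between 1.24 and 1.46.

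The SD of log2 CPM of *Amh* within genotypes was 0.42, at the 83.6th percentile of all tested genes, while the median SD of the 8 Sertoli genes was 0.12 and that of all tested genes 0.19. The genotype means of *Amh* were 128 ± 40.0 CPM and 124 ± 25.7 CPM (SD, n = 4 each). Their log2 fold change was -0.05 (SE 0.24, exact permutation p = 1). Its 95% interval ran from 0.67 to 1.40 as a fold. Without wild type replicate 1 the log2 fold change of *Amh* was 0.14, without *Morc2b*-/- replicate 4 it was 0.09, and without wild type replicate 4 it was -0.23.

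**Figure D2:**
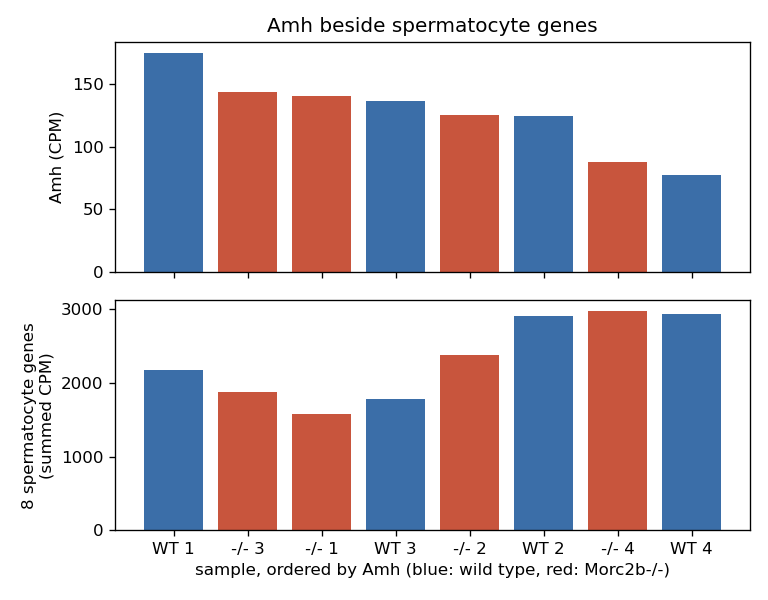
*Amh* (upper axis, CPM) and the sum of 8 spermatocyte genes (lower axis, CPM) in each sample, ordered from the highest to the lowest *Amh*, with wild type in blue and *Morc2b*-/- in red. The 4 samples with the most *Amh* are the 4 with the lowest spermatocyte sums, 1572 to 2173 CPM, and the other 4 have 2386 to 2975 CPM.

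The summed CPM of the 8 spermatocyte genes ran opposite to *Amh* across the samples and overlapped between genotypes. The sum of the 8 spermatocyte genes was 2173, 2917, 1783 and 2936 CPM in wild type replicates 1 to 4 and 1572, 2386, 1880.0 and 2975 CPM in the mutants. *Sycp1*, *Sycp3*, *Tex101* and *Smc1b* made up most of it, with genotype means of 452 to 704 CPM, against at most 72.7 CPM for the others. *Dmc1*, *Hormad1* and *Spo11*, with 3, 4 and 4 listed transcripts, lack the reads that their transcripts share. The 4 samples with the lowest sums were the 4 with the most *Amh*, and both replicates 4, with the least *Amh*, had the highest sums. *Tsx*, an X-linked gene listed here with the other Sertoli genes, was singled out after its values were seen and went the other way from *Amh*. *Tsx* was highest in both replicates 4, at 67.5 CPM in wild type and 93.4 CPM in the mutant, against 22.9 to 41.5 CPM in the other 6 samples. It ran with the spermatocyte sums, and which cells its transcripts came from was not tested. These are descriptions of 8 samples that share library preparation, and the part of germ cell composition in the *Amh* values was not tested.

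AMH acts through the type II receptor AMHR2, BMP type I receptors and SMAD proteins. Of 6 genes listed for this pathway, 4 were tested and 0 passed the adjusted p of 0.05, with a median log2 fold change of 0.04. *Bmpr1a*, a type I receptor, had the highest log2 fold change, 0.08, and *Smad9*, a signal transducer, the lowest, -0.29. *Acvr1* and *Smad5*, with 3 listed transcripts each, had 17 and 44 counts over all samples and did not pass the filter on low counts, which is not a measure of their expression.

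The genes of the FSH and inhibin loop, *Fshr*, *Inha* and *Inhbb*, were the ones with an entry in the set of RefSeq promoters used here. The 250 bases before the start of *Fshr* (GRCm38.p6, minus strand, chr17:89200676-89200925) and of *Inhbb* (GRCm38.p6, minus strand, chr1:119422249-119422498) are shown since they carry the receptor that senses FSH and the subunit that makes inhibin B. The start that RefSeq gives for the *Inha* entry lies inside the gene, so it is left out. Capitals mark every match, on either strand, to 7 motifs: CACGTG (E-box), AGATAN or TGATAN with A or G as the last base (GATA), CAAGGTCA (NR5A1), TGACGTCA (cAMP response element), GGGCGG (GC box), TATAAA and ACAATG (SOX).
Fshr: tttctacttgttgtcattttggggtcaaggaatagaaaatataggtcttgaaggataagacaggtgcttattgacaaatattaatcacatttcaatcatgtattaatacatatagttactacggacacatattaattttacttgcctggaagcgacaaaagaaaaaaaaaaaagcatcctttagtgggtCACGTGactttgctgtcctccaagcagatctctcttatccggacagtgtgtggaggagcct
Inhbb: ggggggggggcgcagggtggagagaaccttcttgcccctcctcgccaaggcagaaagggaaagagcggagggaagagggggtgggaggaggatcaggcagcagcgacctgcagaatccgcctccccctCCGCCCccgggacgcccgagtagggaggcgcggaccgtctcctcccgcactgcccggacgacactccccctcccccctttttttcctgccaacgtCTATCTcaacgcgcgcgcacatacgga
*Fshr* had 1 match, an E-box 61 to 56 bases before the start, a motif that 6.02% of 32851 promoter windows of this length held. *Inhbb* had a GC box, found in 32.7% of windows, and a GATA motif 27 to 22 bases before the start, found in 26.5%. The *Fshr* window was 36.8% G and C and the *Inhbb* window 68%. A match is a stretch of letters and was not tested for binding.

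*Fshr*, on chromosome 17 at 89384292 to 89600015 (NCBIM37, minus strand, 10 exons), encodes the G protein-coupled receptor by which Sertoli cells sense FSH. *Fshr* had 49.2, 59.8, 60.6 and 55.5 CPM in wild type and 59.1, 57.1, 64.5 and 55.5 CPM in the mutants. Wild type replicate 1, the sample with the most epididymal and myoid transcripts, was lowest, and the other 7 samples lay between 55.5 and 64.5 CPM. The log2 fold change of *Fshr* was 0.07 (SE 0.08, 95% interval -0.12 to 0.26, exact permutation p = 0.486), and it was 0.01 without wild type replicate 1.

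*Inha*, on chromosome 1 at 75503652 to 75506941 (NCBIM37, plus strand), encodes the alpha subunit common to inhibins. *Inha* had 208, 180.1, 210.1 and 217 CPM in wild type and 207, 154, 182 and 225 CPM in *Morc2b*-/-. The mutants held both the lowest and the highest value. For *Inha* the log2 fold change was -0.09 (SE 0.11, 95% interval -0.35 to 0.17, exact permutation p = 0.571). The transcript with more counts held 59.5% to 72.9% of the *Inha* counts, 63.7 ± 5.94% in wild type and 66.1 ± 5.40% in the mutants (SD, n = 4 each, exact permutation p = 0.571).

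*Inhbb*, on chromosome 1 at 121312042 to 121318825 (NCBIM37, minus strand, 2 exons), encodes the beta B subunit, which pairs with the alpha subunit in inhibin B and with itself in activin B. *Inhbb* had 292, 269, 314 and 259 CPM in wild type and 330.0, 285, 338 and 286 CPM in the mutants. The mutants held the 2 highest values, and the other mutants lay within the wild type range. The log2 fold change of *Inhbb* was 0.13 (SE 0.08, 95% interval -0.06 to 0.32, exact permutation p = 0.2).

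The ratio of *Inhbb* to *Inha* CPM ran from 1.19 to 1.49 in wild type and from 1.27 to 1.86 in *Morc2b*-/-, with means of 1.40 ± 0.14 and 1.65 ± 0.28 (SD, n = 4 each, exact permutation p = 0.2). The ratio of *Amh* to *Fshr* was 2.32 ± 0.90 and 2.09 ± 0.35 (SD, n = 4 each, exact permutation p = 0.914). Neither ratio separated the genotypes, and both were lowest in replicate 4 of each. *Inha* lacks the reads that its 2 listed transcripts share, and the ratios are not scaled by transcript length. They compare samples and do not tell which gene of a ratio is expressed more.

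Of 12 other genes of inhibin and activin signalling, 9 were tested and 0 passed, with a median log2 fold change of 0.08 and 8 above 0. *Fst*, an activin antagonist with 3 listed transcripts and under 1 CPM left, had the highest log2 fold change, 0.24, and *Tgfbr3*, the inhibin co-receptor betaglycan, the lowest, -0.14. *Tgfbr3* had 122 CPM in wild type replicate 1 and 77.4 to 97.5 CPM in the other samples. Of 14 genes of FSH signal transduction, 8 were tested and 0 passed, with a median log2 fold change of 0.14. *Prkar2b*, a regulatory subunit of protein kinase A, had the highest, 0.30, with 131 to 238 CPM in wild type and 172 to 314 CPM in the mutants, and *Prkacb*, a catalytic subunit with 4 listed transcripts and few counts, the lowest, -0.07. In both lists, every untested gene has more than 1 listed transcript and lacks the reads its transcripts share, as do some tested genes. Both medians thus cover only part of each list.

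*Clu*, on chromosome 14 at 66587320 to 66600385 (NCBIM37, plus strand), was by far the most abundant of the Sertoli genes and took 0.621% of all counts. *Clu* had 5877, 5493, 5816 and 6400 CPM in wild type and 6790, 6057, 6556 and 6658 CPM in *Morc2b*-/-. The mutants held the 3 highest values, and mutant replicate 2 was below wild type replicate 4. Mean *Clu* was 5896 ± 375 CPM in wild type and 6515 ± 320 CPM in the mutants (SD, n = 4 each), a fold of 1.11 (95% interval 1.00 to 1.22).

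The unadjusted p of *Clu* was 0.0443 in edgeR, with an adjusted p of 0.9998, and the exact permutation p was 0.0571. *Clu* is also made by epididymal cells. Wild type replicate 1, with the most epididymal transcripts, had 5877 CPM of *Clu*, and without it the log2 fold change of *Clu* was 0.14. The part of epididymal transcripts in the *Clu* values was not tested.

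**Figure D3:**
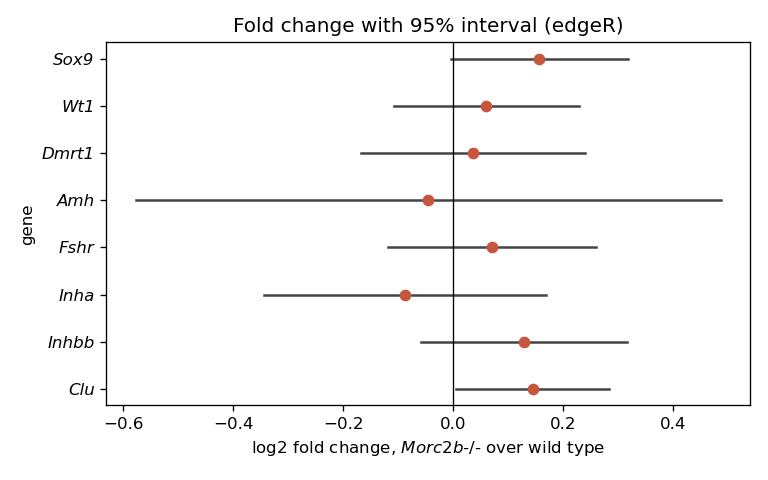
Log2 fold change of each measurable Sertoli gene, *Morc2b*-/- over wild type (horizontal axis), as points with the 95% interval from edgeR as lines. The intervals of 7 genes include 0, that of *Clu* runs from 0.00 to 0.28, and that of *Amh* is the widest, -0.58 to 0.49.

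To compare levels between genes, CPM were divided by transcript length in kilobases. In wild type, *Clu* was highest at 3256 ± 207 CPM per kilobase, followed by *Dmrt1* at 175 ± 19.7. *Inha* at 138 ± 11.03 and *Wt1* at 136 ± 9.98 CPM per kilobase came next and overlapped. *Amh*, at 76.9 ± 24.0, and *Inhbb*, at 66.6 ± 5.81 CPM per kilobase, also overlapped each other. *Sox9* at 46.3 ± 2.78 and *Fshr* at 23.9 ± 2.20 CPM per kilobase were lowest (SD, n = 4 each). Apart from these overlapping pairs, wild type samples of neighbours in this order did not overlap, and in the mutants the means kept the same order except that *Wt1*, at 141 ± 11.6, was above *Inha*, at 130.0 ± 20.9 CPM per kilobase. The level of *Inha* lacks the reads set aside, and the annotated *Amh* transcript of 1665 bases is almost all coding, so both are approximate.

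The Sertoli genes varied together to different degrees. Over the 8 samples, Pearson's r of log2 CPM between 2 Sertoli genes ran from -0.32 to 0.88 over 28 pairs, with a median of 0.33 and 21 pairs above 0. *Dmrt1* varied with *Amh* (r = 0.88) and with *Inhbb* (r = 0.86). *Sox9* varied with *Wt1* (r = 0.78), *Clu* (r = 0.77) and *Inhbb* (r = 0.77), while its r with *Amh* was 0.00. The median r with the other Sertoli genes was 0.64 for *Sox9*, 0.50 for *Inhbb* and 0.45 for *Wt1*, beside medians of 0.01, 0.03 and -0.01 with all tested genes. For *Amh* and *Inha* it was 0.00 and -0.02, beside -0.00 and -0.01 with all tested genes. These samples share cell composition, depth and scaling, and the values are descriptions.

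**Figure D4:**
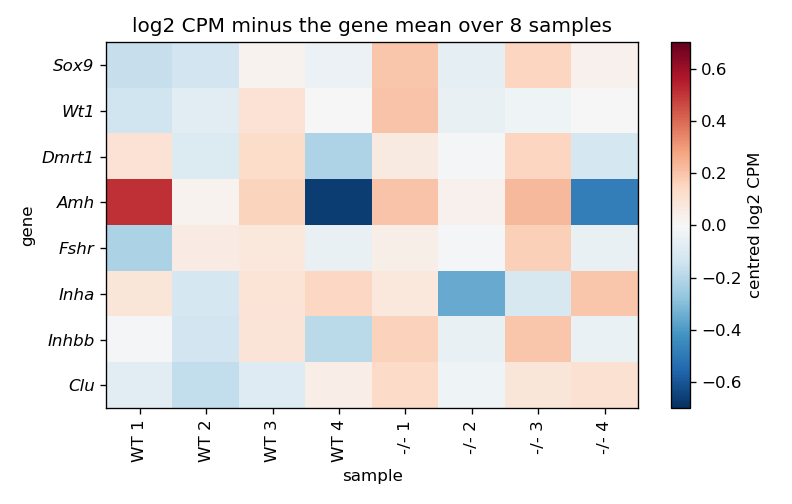
Log2 CPM of each Sertoli gene (rows) minus its mean over the 8 samples, by sample (columns), with red above and blue below the mean. *Amh* ranges from -0.66 in wild type replicate 4 to 0.51 in wild type replicate 1, and the next largest departure is -0.35, of *Inha* in mutant replicate 2.

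The mean of the centred log2 values of the 8 genes was highest in mutant replicates 1 and 3, at 0.13 and 0.10, and lowest in wild type replicate 4, at -0.12. The values were not scaled by the spread of each gene, so *Amh*, at -0.66 in wild type replicate 4, weighed most in this mean. Among 13499 other tested genes, those whose log2 CPM was most like this mean over the 8 samples were *Scx*, *Gstm1*, *Rab35* and *Aars* (r = 0.98 each) and *Epha2* (r = 0.97). These r values were picked as the highest of 13499 over only 8 samples and were not tested. *Scx*, which encodes the basic helix-loop-helix factor scleraxis, was measured at 16.9 CPM and *Gstm1*, a glutathione transferase gene, at 907 CPM on average.

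Other genes of Sertoli cells were read from the same fit. Of 20 listed, 19 were tested, 0 passed, and 15 had a log2 fold change above 0, with a median of 0.08. *Aard* had the highest, 0.17, with 1352 to 1640.0 CPM in wild type and 1551 to 1827 CPM in the mutants. *Kitl*, the ligand of the KIT receptor of germ cells, had the lowest, -0.48 (SE 0.23, adjusted p = 0.9998 in edgeR), at 0.818 to 1.32 CPM in wild type and 0.595 to 0.928 CPM in the mutants. *Kitl* has 2 listed transcripts, so these values lack the reads that both share and are not its level. The summed CPM of these 20 genes ran from 7513 to 8441 in wild type and from 7831 to 8797 in the mutants. When the Sertoli genes were scaled to this sum instead of the library, their median log2 fold change was -0.03.

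Among genes of granulosa cells, the ovarian counterpart of Sertoli cells, *Foxl2*, the factor that maintains granulosa fate, has 1 listed transcript. *Foxl2* lay between 0 and 0.0629 CPM in wild type and between 0.0811 and 0.229 CPM in the mutants. The genotypes did not overlap, as in 1.29% of tested genes, but *Foxl2* had 23 counts over all samples and did not pass the filter on low counts. A difference so near 0 was not tested. *Cyp19a1*, *Esr2* and *Nr5a2*, with 4, 3 and 2 listed transcripts, had 12, 3 and 7 counts over all samples, from which no level can be read. *Wnt4* and *Rspo1*, which are expressed in other gonadal cells too, were tested and did not pass, with log2 fold changes of 0.01 and 0.20.

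Of the lists of other cell types, 0 genes passed in any. Genes in these lists with more than 1 listed transcript lack the reads that their transcripts share. Median log2 fold changes were 0.11 for 6 tested genes of spermatogonia, -0.09 for 8 of spermatocytes, -0.07 for 5 of macrophages, 0.10 for 3 of endothelial cells and -0.18 for 2 of the epididymis. The epididymal genes that were high in wild type replicate 1 did not pass the filter on low counts. The epididymal median is therefore no measure of epididymal content. Of Leydig cells, 5 genes had a median of 0.18, which was -0.44 without *Morc2b*-/- replicate 1 and 0.76 without wild type replicate 3, the samples with the highest sums. For 6 spermatid genes the median was 1.08, and -1.08 without *Morc2b*-/- replicate 3. For 4 peritubular myoid genes it was -0.38, and 0.11 without wild type replicate 1. For 4 genes of pachytene and later spermatocytes it was -1.29, and -0.51 without wild type replicate 4, which held 290.1 CPM of these genes. The 5 genes of red blood cells were listed at 0 in every sample, from which no content of blood can be read. The Sertoli genes summed to 7100 to 7985 CPM in wild type and 7690 to 8677 CPM in the mutants. The part of these other cells in the Sertoli values was not tested.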

How the data were processed

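Total RNA was isolated from 8 pairs of mouse testes at postnatal day 12, and poly(A) libraries were made with a stranded kit, pooled in equal amounts and sequenced together. The authors trimmed the reads and aligned them with Tophat to the NCBI37/mm9 genome. The deposited values are raw counts, neither pooled nor normalized, with 1 value for every RefSeq transcript. The submitters' processing notes name Cufflinks and Cuffdiff. The counter and its strand setting are not given in the sources used here. Reads on more than 1 transcript, 26.8% to 28.8% of uniquely aligned reads, were set aside, as were 20.7% to 26.5% that met no feature.

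Of 35819 listed transcripts, 35522 matched a symbol and the remaining 297 (0.484% of counts) were kept as single units, which gave 24651 genes. Library totals were 27144796 to 36941755 counts (median 31684772). The lowest chi-square divided by its degrees of freedom between a pair of libraries was 5.67, so no library was a copy of another. edgeR 4.0.16 (R 4.3.3) was run with TMM, filterByExpr by genotype and the quasi-likelihood test over all genes, with Benjamini-Hochberg adjustment at 0.05 and genotype as the only term. The procedure was tested on simulated data. Exact two-sided permutation tests over the 70 splits used log2 CPM with a prior count of 2. Samples are separate pairs of testes, so p-values measure the spread between animals.

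The members and lists were chosen with earlier results of these data known. Genes named beside the 9 are *Morc2b*, the highest and lowest log2 fold change of each pathway or Sertoli list, and the 5 genes most like the members' mean. *Tsx*, *Pkmyt1* and the list genes with few counts (*Acvr1*, *Smad5*, *Foxl2*, *Cyp19a1*, *Esr2* and *Nr5a2*) were named after their values were seen. The same holds for *Sycp1*, *Sycp3*, *Tex101*, *Smc1b*, *Dmc1*, *Hormad1* and *Spo11*. Gene positions are from GENCODE for NCBIM37, the assembly of mm9. Promoters are from the set of RefSeq promoters used here (GRCm38.p6), which held 3 of the 9 genes. Alternatives were RLE scaling, DESeq2 1.42.0, limma-voom (limma 3.58.1), no low-count filter, a replicate block, transcripts as units, leaving out each sample, scaling to other Sertoli genes and a prior count of 0.5.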

Additional observations from a re-analysis of the deposited data

How the results depend on the processing

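Each of the 8 tested Sertoli genes was recomputed under 19 alternatives, 3 of which give a value with no test, and none passed an adjusted p of 0.05 under any of the other 16. Over all genes, 0 passed in edgeR, with 249 at an unadjusted p under 0.05. Limma-voom also gave 0. DESeq2 gave 1, *Pkmyt1* (log2 fold change -0.49, adjusted p = 0.00931), named after its value was seen, and 262 genes at an unadjusted p under 0.05. Leaving out single samples moved the log2 fold change of *Amh* between -0.23 and 0.14, of *Dmrt1* between -0.0289 and 0.0859, of *Wt1* between -0.0016 and 0.11 and of *Inha* between -0.17 and 0.0044, so the sign of these was not fixed. Scaled to the other Sertoli genes, *Wt1* was at -0.0395, *Dmrt1* at -0.0597, *Fshr* at -0.0264 and the median of the 8 genes at -0.0329. Leaving out wild type replicate 1 and *Morc2b*-/- replicate 3, which carry spermatid transcripts (chosen after seeing the data), put *Amh* at 0.0583 and *Fshr* at -0.0389. *Sox9*, *Inhbb* and *Clu* stayed above 0 throughout. Medians of the other lists were recomputed 126 times, and 125 moved by less than the spread between replicates. That spread was wide for some lists, and leaving out 1 sample or RLE scaling can seldom move a median past it, so this count is a weak check. Leaving out 1 sample turned the sign of 6 of 14 medians: spermatids (-1.08 to 5.81), Leydig cells (-0.44 to 0.76), peritubular myoid cells (-0.54 to 0.11), spermatocytes (-0.31 to 0.10), granulosa cells (-0.06 to 0.24) and endothelial cells (-0.0021 to 0.26).

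With a replicate block, 0 genes passed the adjusted p and 572 had an unadjusted p under 0.05. *Sox9* (0.15), *Inhbb* (0.13) and *Clu* (0.14) were higher in the mutant of all 4 numbers, with unadjusted p-values of 0.0398, 0.0133 and 0.0145 and adjusted p-values of 0.985 in edgeR, so 3 of the 8 genes were under 0.05 before adjustment, against 1 without the block. The labels do not say whether same-numbered samples are pairs. Deviations of same-numbered samples correlated at -0.32 to 0.45 (mean 0.05), and those of different-numbered samples at -0.50 to 0.61 (mean -0.02). Of 8 samples, 4 matched best with their own number. These values do not decide whether the numbers pair the samples.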
